A study of Mus musculus with 8 samples.

Results

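The eosinophil-associated ribonucleases (Ear) are small secreted enzymes of the RNase A superfamily, and in the mouse they form a cluster of closely related genes. They were taken from the array by name, as every probe whose gene symbol is Ear followed by digits, together with *Rnase4* and *Ang*, which encode ribonuclease 4 and angiogenin and lie on the same chromosome. This gave 18 of 45281 probes and 11 of 30789 gene symbols, of which 15 probes stand for 9 Ear genes, 2 probes for *Rnase4* and 1 probe for *Ang*. The family was chosen by measured values of these same arrays, since *Ear2* stood high in the comparison of macrophages loaded with acetylated LDL (Ac-LDL) with controls. For this reason the Ac-LDL values of the members are given as a description, with no p-value, and nothing is supported with them. The study asked which genes change when macrophages take up modified LDL and turn into foam cells. It used thioglycollate-elicited peritoneal macrophages, cells that an irritant broth draws into the abdominal cavity, from C57/BL6 mice of 8 weeks. The study's methods give the mice as male. In 4 samples the cells received Ac-LDL at 120 μg/ml over 24 h, and the 4 control samples were mock treated over the same time. No gene was altered in either group, and both held cells that were elicited, plated and washed in the same way, so that other adherent peritoneal cells could remain among them.

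RNase A superfamily members cut RNA, and many of them take part in host defence, with angiogenin also known as a factor that stimulates the growth of blood vessels. The mouse Ear genes correspond to the human genes of eosinophil-derived neurotoxin and eosinophil cationic protein, which eosinophils store in their granules. They arose by repeated gene duplication, and many of them remain closely alike in sequence. *Ang* and *Rnase4* are known to be transcribed from shared promoters, with separate coding exons.

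By gene identifier, 8 of the 11 member genes matched a gene of the RefSeq table (GRCm38.p6), and all 8 lie on chromosome 14. *Ear2* is at chr14:44102654-44103531 and *Ear10* at chr14:43922898-43923596. The others lie further along the chromosome. *Ang* (chr14:51091077-51102009) and *Rnase4* (chr14:51091077-51106151) start at the same base, followed by *Ear5*, now named *Rnase2b* (chr14:51162260-51163018), *Ear14* (chr14:51203695-51204156), *Ear11*, now named *Rnase2a* (chr14:51255261-51256112), and *Ear6* (chr14:51853768-51854643). *Ear3*, *Ear4* and *Ear12* had no match and are given by the symbols of the deposited annotation.

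Each probe of the array is a 50-base oligonucleotide, and its match to the transcripts sets which of them it can tell apart. Here probes were compared with each other, which does not show which transcripts a probe can read. Of the 153 pairs of member probes, 4 were near-identical, with at least 20 aligned bases and at most 20% mismatches. The probes of *Ear10* and *Ear12* were alike over nearly their whole length, with 4 mismatches, in capitals, in 49 aligned bases.
Ear10 probe: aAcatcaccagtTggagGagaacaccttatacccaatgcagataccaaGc
Ear12 probe: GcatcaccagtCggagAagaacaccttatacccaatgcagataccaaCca
An *Ear3* probe that starts at base 295 of its transcript had 2 mismatches in 26 bases with the *Ear10* probe and 3 in 25 with the *Ear12* probe. The fourth pair were the *Ear2* probes that start at bases 613 and 639, which read overlapping stretches of 1 transcript and share 24 bases (gtcctcgtgaaacctgtcacttac) with 0 mismatches. None of the 45263 other probes, compared on both strands where they shared a run of 12 bases, was near-identical to a member.

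The probes of *Ear3* at base 223 and of *Ear4* at base 7 are shown because their values followed those of *Ear2*, as given further on. In the *Ear4* probe, capitals mark the 5 bases of 50 at which it differs from the first bases of *Ear14*, a gene whose own probe was detected on no array.
Ear3 probe at 223: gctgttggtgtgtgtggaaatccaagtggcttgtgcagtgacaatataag
Ear4 probe at 7: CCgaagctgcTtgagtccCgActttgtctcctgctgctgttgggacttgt
The *Ear2* probe that starts at base 38 runs over the start of the coding sequence, whose ATG, in capitals, is at base 72 of the transcript. From there it reads ATGggtccgaagctgc, and the *Ear4* probe repeats its last 10 bases. Neither the *Ear3* nor the *Ear4* probe was near-identical to a probe of *Ear2*, but the transcripts themselves were not compared. The *Ear2* probe at base 1 matched the start of *Ear2* in RefSeq with 0 differences and the sequence at the start of *Ear1*, a gene with no probe of that symbol on this array, with 2. At the starts of *Ear6* and *Ear10* the differences were 5 and 7. Before *Rnase2b* and *Rnase2a*, where the nearest match began upstream of the annotated start and ran over it, they were 4 and 5.

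The 250 bases before each gene's start were alike as well. *Ear1* and *Ear2* agreed at 246 of 248 aligned bases (99.2%), *Ear2* and *Ear10* at 231 of 246 (93.9%), *Ear2* and *Rnase2b* at 89.6%, *Ear2* and *Ear6* at 85.4%, and *Ear2* and *Rnase2a* at 79.1%. The windows of *Ear2* (chr14:44102404-44102653, plus strand) and *Ear10* (chr14:43923597-43923846, minus strand) are shown from RefSeq, GRCm38.p6, because these nearly identical sequences stand before a gene that was detected on all arrays and a gene detected on none. Capitals mark the bases at which they differ.
Ear2 upstream: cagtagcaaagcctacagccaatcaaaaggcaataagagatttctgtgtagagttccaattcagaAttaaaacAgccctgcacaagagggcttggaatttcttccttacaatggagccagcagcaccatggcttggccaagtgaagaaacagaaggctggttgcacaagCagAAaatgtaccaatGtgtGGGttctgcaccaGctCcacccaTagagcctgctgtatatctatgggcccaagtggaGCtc
Ear10 upstream: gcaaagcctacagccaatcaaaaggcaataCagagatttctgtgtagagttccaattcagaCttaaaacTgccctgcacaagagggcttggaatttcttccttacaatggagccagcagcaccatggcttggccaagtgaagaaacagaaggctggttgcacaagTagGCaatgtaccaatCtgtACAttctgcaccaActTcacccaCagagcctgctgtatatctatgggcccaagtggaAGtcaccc
Short motifs were searched on both strands of these windows and of those of all genes. CCAAT occurred 3 times before *Ear1*, *Ear2* and *Ear10*, and once before *Ear6*, *Rnase2a*, *Rnase2b* and *Ang*, and was held by 33.8% of the 32851 windows. TTGCNNAA, the core bound by C/EBP factors, occurred once before *Ear1*, *Ear2*, *Ear10*, *Rnase2a* and *Rnase2b* (9.56% of all windows). It did not overlap a CCAAT before *Ear2* or *Ear10*. TATAAA (12.4% of all), the AP-1 motif TGACTCA (4.46%) and the STAT6 motif, TTC and GAA with 4 bases between them (5.85%), occurred in none of these windows. GATAA (22.6%) occurred 2 times before *Ear14* and once before *Rnase2a* and *Rnase2b*, AGGTCA (14.02%) once before *Ear6*, and GAGGAA (23.3%) once before *Rnase2a*, and none of these occurred before *Ear1*, *Ear2*, *Ear10* or *Ang*. The window of *Ang* and *Rnase4* (chr14:51090827-51091076, plus strand) is 1 and the same, and its CCAAT is in capitals.
Ang and Rnase4 upstream: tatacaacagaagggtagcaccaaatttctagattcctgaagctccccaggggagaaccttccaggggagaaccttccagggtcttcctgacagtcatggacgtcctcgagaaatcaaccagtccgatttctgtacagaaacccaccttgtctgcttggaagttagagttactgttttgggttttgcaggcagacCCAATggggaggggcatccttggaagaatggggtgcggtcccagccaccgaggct
A match is a description of the letters and not a bound site.

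All levels are normalized log2 intensities after background correction, where a difference of 1 is a doubling of the corrected intensity plus an offset of 16. A probe was detected on an array where its detection p-value, its rank against the negative controls, was at most 0.05, and the test covered 17122 probes, those detected on 4 or more of the 8 arrays. Between 36.8% and 38.5% of all probes were detected per array. Slide 1 held replicates 1 and 2 of both groups and slide 2 held replicates 3 and 4, so that slide and biological replicate cannot be told apart. With 4 arrays per group, the precision of every value is limited by their number. All 10 macrophage marker symbols on the array were tested. They stand for 9 genes, since *Lyz2* and *Lyzs* are both names of lysozyme 2. By the probe of highest mean of each symbol, their mean levels in control cells ran from 6.28 (*Itgam*) to 14.73 (*Lyz2*), with *Cd68* at 13.06. *Dcn*, of stromal cells, was at 13.21, and the share of each cell type was not measured.

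*Ear2* is the Ear gene with most probes on the array, and it was higher with Ac-LDL by all 4 of them. By the probe at base 613 (ILMN_2925653), the *Ear2* probe with the highest mean, the log2 level was 5.92, 5.70, 5.99 and 6.50 in control replicates 1 to 4 and 6.52, 6.63, 7.19 and 7.79 in Ac-LDL replicates 1 to 4. The groups did not overlap, but the lowest Ac-LDL array lay only just above the highest control array, control replicate 4. The deposited signals were 91.4, 69.9, 93.5 and 125.8 in control and 104.5, 116.6, 175.0 and 232.5 with Ac-LDL. Ac-LDL-treated cells had a mean of 7.03 ± 0.59 (SD, n = 4) and control cells one of 6.03 ± 0.34 (SD, n = 4), a difference of 1.00 (standard error 0.27) or 2.00-fold, and it was 0.60, 0.92, 1.20 and 1.29 in pairs 1 to 4. In all 4 pairs the Ac-LDL array was higher. In pair 1 the deposited signals differed by 2.34 combined bead standard errors, and in the other pairs by 8.90 or more.

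The other *Ear2* probes showed smaller differences, and their groups overlapped. The probe at base 639 (ILMN_2731735) was at 5.17, 5.24, 5.66 and 6.04 in control and at 5.76, 6.15, 6.29 and 7.13 with Ac-LDL, a difference of 0.81 (standard error 0.28). Control replicate 4 lay above Ac-LDL replicate 1, while every Ac-LDL array was above the control array of its own number. The probe at base 38 (ILMN_1232396) was at 5.17, 5.44, 5.08 and 5.44 in control and at 5.46, 5.41, 5.97 and 6.34 with Ac-LDL, a difference of 0.52 (standard error 0.20). By this probe 3 of 4 pairs were higher with Ac-LDL, by 0.29, 0.89 and 0.91 in pairs 1, 3 and 4, and pair 2 differed by -0.02. The deposited signals of pair 1 were level, 63.2 in control and 63.1 with Ac-LDL, so that its rise appeared only after normalization. The probe at base 1 (ILMN_2524992) was at 4.55, 4.52, 4.67 and 4.93 in control and at 4.88, 4.82, 4.95 and 5.61 with Ac-LDL, a difference of 0.40 (standard error 0.18). It was detected on 1 of 4 control and 4 of 4 Ac-LDL arrays, so that it entered the tested probes through the group in which it was high, and on 3 control arrays it was not above background. With the mean of the 4 probes in place of the probe at base 613, the difference of *Ear2* was 0.68.

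**Figure D1:**
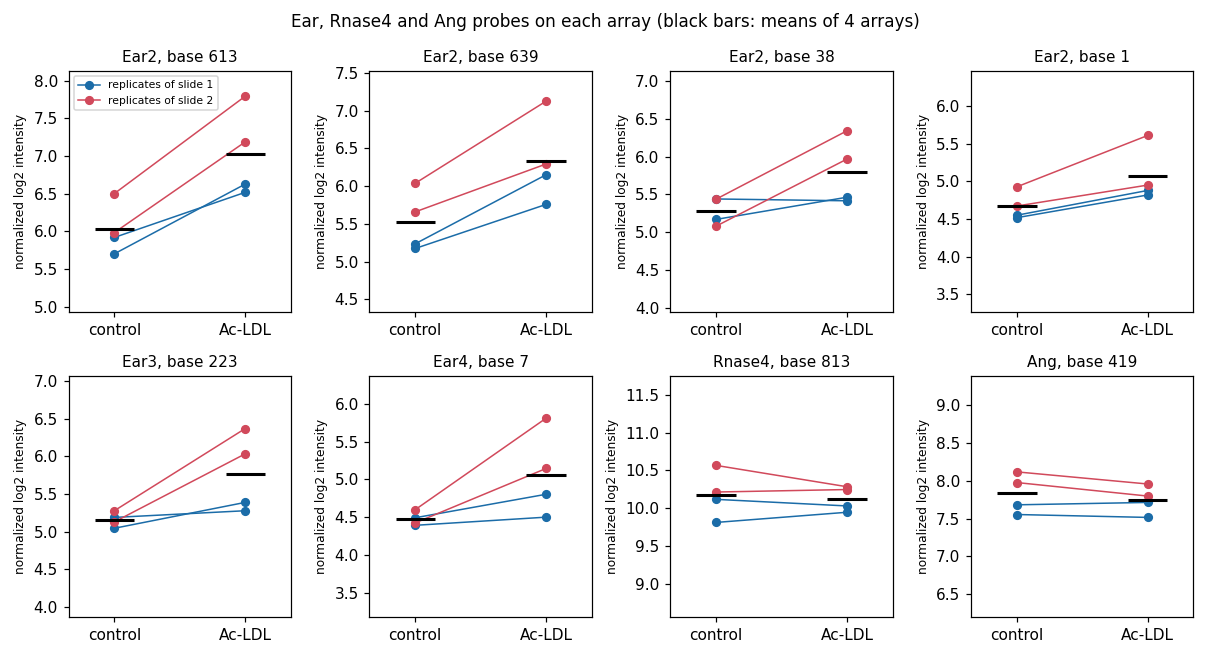
Normalized log2 intensity (y axes, each panel spanning the same range around its own mean) of 8 family probes on the 4 control and 4 Ac-LDL arrays. Lines join arrays of the same replicate number, blue for slide 1 and red for slide 2, and black bars are the means of 4 arrays. The Ear probes are higher with Ac-LDL in nearly every pair, and *Rnase4* and *Ang* lie level. For *Ear3*, *Ear4* and the *Ear2* probes at bases 613 and 38, both lines of slide 2 are steeper than those of slide 1.

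*Ear3* and *Ear4* had their highest levels on the same arrays as *Ear2*, Ac-LDL replicates 3 and 4. By the *Ear3* probe at base 223 (ILMN_2524986), which was detected on 8 arrays, the level was 5.19, 5.05, 5.13 and 5.28 in control and 5.28, 5.39, 6.03 and 6.37 with Ac-LDL, a difference of 0.61 (standard error 0.22). Ac-LDL replicates 3 and 4 stood apart from the 6 other arrays, which lay within 5.05 to 5.39. In pair 1 the deposited signal of this probe was lower with Ac-LDL, 58.5 against 63.9 in control (-1.16 combined bead standard errors). The other *Ear3* probes, at bases 295 and 379, were detected on no array and differed by 0.04 each. The *Ear4* probe (ILMN_2868480) was detected on 0 of 4 control arrays and on 2 of 4 Ac-LDL arrays, replicates 3 and 4, and it was not tested. Its level was 4.39, 4.49, 4.42 and 4.60 in control, which is not above background, and 4.50, 4.80, 5.14 and 5.81 with Ac-LDL. The mean Ac-LDL level was 1.23-fold the control when counted from the lowest level of a detected probe on each control array. This is not a lower bound, since Ac-LDL replicates 1 and 2 were not detected either. The measured means were 5.06 ± 0.56 (SD, n = 4) with Ac-LDL and 4.48 ± 0.09 (SD, n = 4) in control.

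The other Ear genes were not detected. All 9 probes of *Ear5*, *Ear6*, *Ear10*, *Ear11*, *Ear12*, *Ear14* and the further *Ear3* probes had a detection p-value of 0.063 or more on every array. Their deposited signals ran from 28.2 to 52.4 and their differences between Ac-LDL and control from -0.05 (*Ear11*) to 0.12 (*Ear12*). Among them were all 3 near-identical probes of *Ear10*, *Ear12* and *Ear3* at base 295, so that whether these move together could not be seen. A level under the detection limit of these arrays is not an absent transcript.

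*Rnase4* and *Ang* were readily detected and lay level between the groups. The *Rnase4* probe at base 813 (ILMN_1235657) was at 9.81, 10.12, 10.21 and 10.57 in control and at 9.94, 10.03, 10.25 and 10.28 with Ac-LDL, a difference of -0.05 (standard error 0.16) with 2 of 4 pairs higher. The *Ang* probe (ILMN_2875251) was at 7.55, 7.68, 7.98 and 8.12 in control and at 7.51, 7.71, 7.80 and 7.96 with Ac-LDL, a difference of -0.09 (standard error 0.15) with 1 of 4 pairs higher. By both probes the Ac-LDL arrays lay within the span of the control arrays or at its edge, and within each group the arrays of slide 2 were above those of slide 1. A second *Rnase4* probe, at base 18, was detected on 1 array of each group and differed by 0.02.

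**Figure D2:**
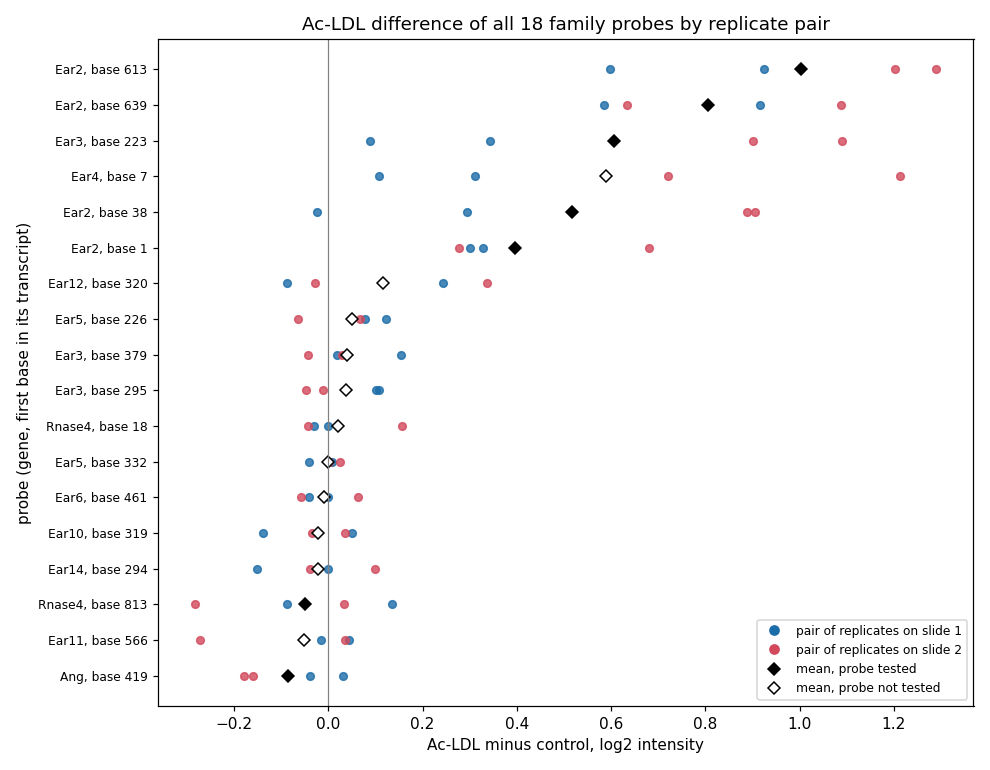
Difference between the Ac-LDL and the control array of the same replicate number (x axis, log2 intensity) for all 18 family probes (y axis), ordered by their mean difference. Circles are the 4 pairs, coloured by slide, and diamonds are the means, filled for the 7 tested probes. The *Ear2*, *Ear3* (base 223) and *Ear4* probes lie between 0.40 and 1.00, and the other probes between -0.09 and 0.12.

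By normalized level, of the 5 tested Ear probes, 5 had a higher mean with Ac-LDL, 4 were higher in all 4 pairs and 1 had groups that did not overlap. By deposited signal, pair 1 was lower with Ac-LDL for *Ear3* at base 223. For *Ear2* at base 1, the deposited signal of pair 1 rose by only 0.98 combined bead standard errors. Over all tested probes, 11.5% were higher in all 4 pairs and 2.11% lay higher with Ac-LDL without overlap (1.68% lower), and nothing is read from this comparison because the contrast was used in choosing the family. None of the 7 tested members was called in the fit of the 2 groups at an adjusted p under 0.05, where 0.0409% of all tested probes were called (0.00584% higher) and 5.2% had an unadjusted p under 0.05. When the replicate number was a block, the *Ear2* probes at bases 613 and 639 were called (0.164% of all probes called higher). When the slide was a block, the probe at base 613 alone was called (0.0876%). Nothing is read from these calls either, because they rest on the contrast that was used in choosing the family. The median difference was 0.52 over the 7 tested members and 0.61 over the 5 Ear probes, beside 0.0012 over all tested probes, of which 50.4% were higher with Ac-LDL. Over all 18 probes it was 0.04.

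The difference between the slides was not used in choosing the family, and it could be tested. With treatment as a covariate, all 7 tested members were higher on slide 2, and 5 of 7 were called by limma, beside 23.6% of all tested probes called in either direction and 11.7% called higher on slide 2. *Ear2* was higher on slide 2 by 0.67 (standard error 0.17, adjusted p = 0.0173 from limma) by the probe at base 613, with signals of 69.9 to 116.6 on slide 1 and 93.5 to 232.5 on slide 2. By the probe at base 639 the difference was 0.70 (adjusted p = 0.0172 from limma). For *Ear3* it was 0.48 (adjusted p = 0.0485 from limma), for *Rnase4* 0.35 (adjusted p = 0.0358 from limma) and for *Ang* 0.35 (adjusted p = 0.0211 from limma). The *Ear2* probes at bases 38 and 1 were higher on slide 2 by 0.34 and 0.35 and were not called (adjusted p = 0.168 and 0.0851 from limma). The slide difference thus took in *Rnase4* and *Ang*, which lay level between the treatments, as well as *Ear2* and *Ear3* (base 223). For *Ear3* and for *Ear2* at base 38 it lay mainly in the Ac-LDL arrays. The *Ear3* control arrays were at 5.19 and 5.05 on slide 1 and 5.13 and 5.28 on slide 2. Those of *Ear2* at base 38 were at 5.17 and 5.44 and at 5.08 and 5.44. The interaction was not called, as given further on. By the other tested probes, both slide 2 arrays lay above both slide 1 arrays in each group. The p-values of the slide fit treat the 8 arrays as independent. The slides differ, however, by 2 replicate numbers against 2, each with an array of both groups. With the replicate number as a random block 4 of 7 were called, beside 21.3% of all probes (not *Ear3*, adjusted p = 0.0608 from limma). On the means of the 2 arrays of each number 2 of 7 were called, beside 13.9% of all probes, *Ear2* at base 613 (adjusted p = 0.0459 from limma) and *Ear3* (adjusted p = 0.0347 from limma). All 7 remained higher on slide 2 when any 1 array was left out, but the number called moved between 0 (without control replicate 4 or Ac-LDL replicate 1) and 5. It was 2 without Ac-LDL replicate 4, 3 without control replicate 1 or 2, 7 with centring of arrays on their median, and 1 when all probes of the array were tested.

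Macrophage genes moved with the slide in the same direction. Of 10 macrophage marker symbols 6 were called higher on slide 2 and 0 lower (lysozyme 2 under *Lyzs* and not under *Lyz2*), with a median difference of 0.60 beside -0.02 over all tested probes, and the summed signal of their probes was 40813 to 45223 on slide 1 and 54369 to 61490 on slide 2. *Emr1*, the F4/80 antigen, was higher by 1.19 (adjusted p = 0.00115 from limma), and *Itgam*, the integrin CD11b, by 1.01 (adjusted p = 0.00127 from limma), while *Cd68*, a lysosomal membrane protein, differed by 0.06 (adjusted p = 0.67 from limma). Of 9 tested genes of alternative activation 6 were called higher on slide 2, among them the mannose receptor *Mrc1* by 1.07 (adjusted p = 0.00241 from limma). Of 7 tested stromal and mesothelial genes 2 were called lower on slide 2, among them *Lum* by -0.99 (adjusted p = 0.0121 from limma), and so was *Lck*, the 1 tested T cell gene, by -0.54 (adjusted p = 0.0234 from limma). Over all tested probes 11.7% were called higher on slide 2. These p-values, too, treat the arrays as independent. On the means of the arrays of each replicate number, *C1qa* (adjusted p = 0.0559 from limma) and *Cd14* (adjusted p = 0.102 from limma) were no longer called. Nor were *Arg1* (adjusted p = 0.101 from limma) and *Chi3l3* (adjusted p = 0.0920 from limma), of alternative activation. *Emr1*, *Itgam*, *Mrc1*, *Lum* and *Lck* remained called. The part of these genes in the slide difference of the ribonucleases was not tested. In these bulk samples fewer cells of a type and less RNA per cell cannot be told apart.

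**Figure D3:**
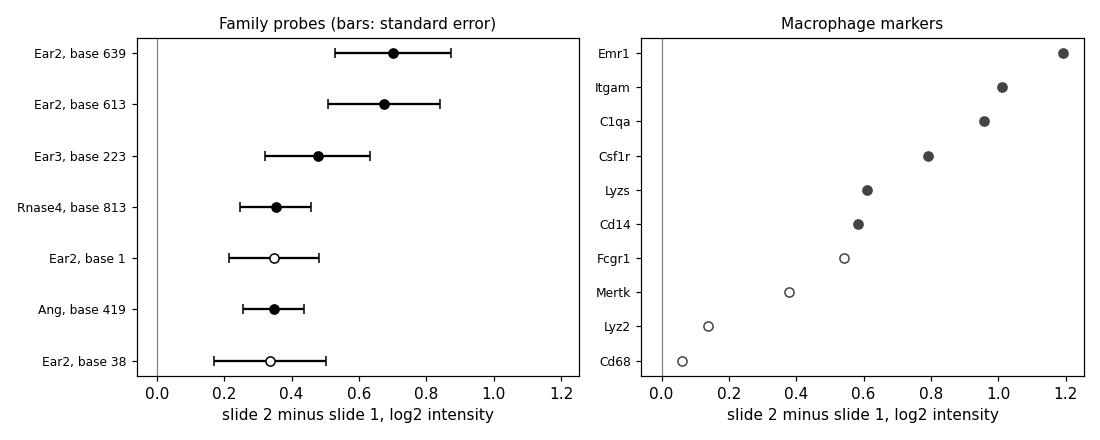
Difference between slide 2 and slide 1 (x axes, log2 intensity, treatment as a covariate) for the 7 tested family probes with standard errors and for 10 macrophage marker symbols, each by its tested probe of highest mean. Filled circles have an adjusted p under 0.05. All 17 points lie above 0, the family between 0.34 and 0.70 and the markers between 0.06 (*Cd68*) and 1.19 (*Emr1*).

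Whether the Ac-LDL difference itself was larger on slide 2 was tested with the interaction of treatment and slide, a comparison added after the values had been seen. For *Ear3* the difference was 0.22 on slide 1 and 1.00 on slide 2, and for the *Ear2* probe at base 38 it was 0.13 and 0.90. Their interactions, 0.78 (unadjusted p = 0.0033 from limma) and 0.76 (unadjusted p = 0.0118 from limma), did not hold after adjustment (adjusted p = 0.44 and 0.50 from limma). For the *Ear2* probe at base 613 the difference was 0.76 on slide 1 and 1.25 on slide 2 (interaction adjusted p = 0.72 from limma), and for the probe at base 639 it was 0.75 and 0.86 (interaction adjusted p = 0.95 from limma). None of the 7 members was called, beside 0% of all tested probes called and 8.38% with an unadjusted p under 0.05. A difference between the *Ear2* probes in this respect was not tested.

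How far the members moved together was described by the deviation of each array from the mean of its treatment group, which leaves out the mean Ac-LDL difference. Over the 8 arrays, the deviations of the *Ear2* probe at base 613 had a Pearson r of 0.94 with those of the overlapping probe at base 639 (Spearman's rho 0.88), 0.93 with the probe at base 1 (rho 0.95) and 0.83 with the probe at base 38 (rho 0.76). With *Ear3* at base 223 r was 0.92 (rho 0.95), and with *Ear4* it was 0.90 (rho 0.93), within the range of the probes of *Ear2*. With *Ang* it was 0.79 (rho 0.79) and with *Rnase4* at base 813 it was 0.72 (rho 0.83). Without the 2 arrays farthest from the middle, control replicate 4 and Ac-LDL replicate 4, r remained at 0.96 for *Ear3* and was 0.80 for *Ear4*, 0.71 for the probe at base 639, 0.68 for that at base 1, 0.59 for that at base 38, 0.53 for *Ang* and 0.45 for *Rnase4*. After removal of the slide means within each group as well, r was 0.95 for *Ear3*, 0.80 for *Ear4*, 0.62 for *Ang* and 0.37 for *Rnase4* at base 813. It was 0.88 for the second *Rnase4* probe, which was detected on only 1 array of each group. Each of these means is of 2 arrays, which then deviate by equal and opposite amounts. Such an r thus rests on fewer independent values than the 8 arrays, and no difference between *Ear3* and *Rnase4* is read from it. The points share slides and RNA samples, and 1% of 17115 other probes had an r of at least 0.90, so that such a value is not particular to the family.

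*Ear3* and *Ear4* had an r of 0.94 with each other, and of 0.90 and 0.92 with the *Ear2* probe at base 38. After removal of the slide means, with the limit given above, these values were 0.86, 0.56 and 0.73. *Rnase4* and *Ang*, which share their start and the upstream window shown above, had an r of 0.93 with each other. After removal of the slide means it was 0.74, with the same limit. Of the 4 near-identical pairs of probes, only the overlapping *Ear2* probes at bases 613 and 639 were detected. The probes of *Ear3* at base 223 and *Ear4*, near-identical to no *Ear2* probe, had a like r. Whether these probes also read the transcript of *Ear2* was not tested.

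**Figure D4:**
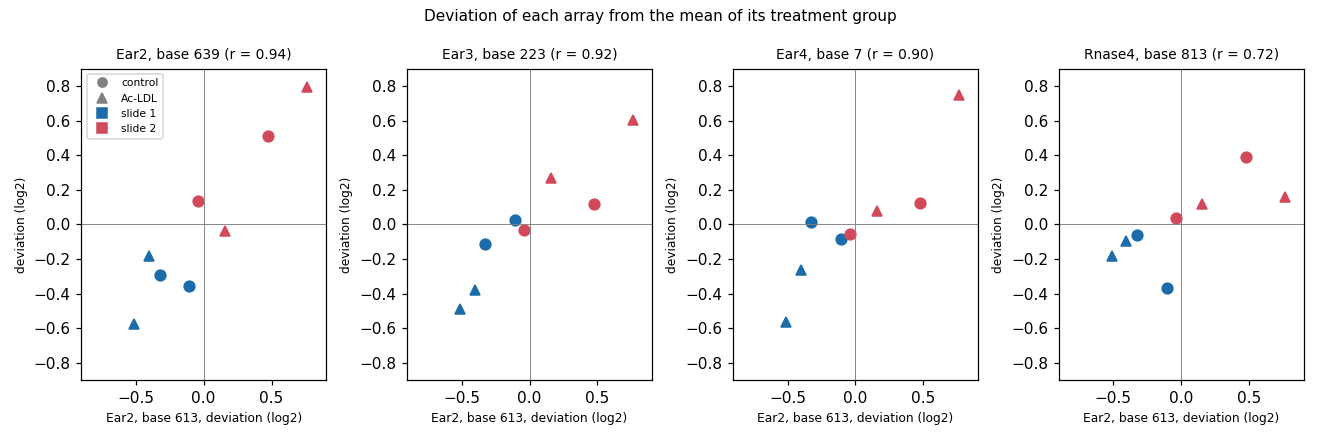
Deviation of each array from the mean of its treatment group (log2 intensity) for the *Ear2* probe at base 613 (x axes) and 4 other family probes (y axes), with Pearson r over the 8 arrays in each title. Circles are control and triangles Ac-LDL arrays, in blue for slide 1 and red for slide 2. The arrays of slide 2 lie to the right and Ac-LDL replicate 4 farthest to the right in every panel, and the points of *Ear3* follow a line more closely than those of *Rnase4*.

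The probes outside the family whose log2 levels over the 8 arrays were most like those of *Ear2* at base 613 were *1700009P17Rik* (r = 0.97), *Dtymk* (0.97), *Mcfd2* (0.97), *Gstm4* (0.97) and *Nucb1* (0.96). *Dtymk* encodes thymidylate kinase and *Gstm4* a glutathione transferase. Their own Ac-LDL differences ran from 0.14 (*Nucb1*) to 0.70 (*1700009P17Rik*). After removal of the treatment means the most alike were *Cbr3* (r = 0.996), *Dhrs2* (0.98), *Samsn1* (0.98), *C230084O18Rik* (0.98) and *Mettl8* (0.97), with Ac-LDL differences from -0.04 to 0.23. *Cbr3* and *Dhrs2* encode carbonyl-reducing enzymes.

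The relatives of the family were nearly all below the detection limit. Of 11 further gene symbols of the RNase A superfamily on the array, 0 were tested, 9 were detected on no array, *Rnase6* was detected on 3 arrays and *Ang1* on 1. Whether *Ang1* stands for a gene other than *Ang* was not checked. *Rnaset2* and *Rnaset2b*, which encode RNase T2, an acid ribonuclease of lysosomes, were detected on all arrays. They differed by 0.18 (standard error 0.10) and 0.09 (standard error 0.10), with 0 called beside 0.0409% of all tested probes. *Rnh1*, which encodes the inhibitor that binds RNase A enzymes, was not analysed here.

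Most of the genes by which eosinophils are known were not detected, and so it was for several other cell types. On no array were 6 of 9 neutrophil, 6 of 9 mast cell and basophil, 4 of 6 T cell and 3 of 5 B cell genes detected. Of 10 macrophage marker symbols this held for 0. Of 8 eosinophil markers, 6 were detected on no array, among them *Prg2* and *Epx*, which encode major basic protein and eosinophil peroxidase, and the eotaxin receptor *Ccr3*. *Cebpe*, a transcription factor of granulocytes, was detected on 3 arrays by 1 of its 4 probes and was not tested. The 1 tested marker, the interleukin-5 receptor *Il5ra*, was detected on 4 arrays and differed by 0.03 (standard error 0.15). The summed signal of the 12 marker probes was 489 to 512 in control and 469 to 525 with Ac-LDL, so that the groups overlapped. It was 469 to 492 on slide 1 and 503 to 525 on slide 2. These sums are of signals without background correction, mostly of undetected probes, and no eosinophil difference is read from them. The median signal of all probes was 42.5 to 45.4 on slide 1 and 45.0 to 46.4 on slide 2. After normalization *Il5ra* differed by -0.07 between slides (adjusted p = 0.75 from limma).

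Genes of other cells and of macrophage activation were not called in the fit of the 2 groups, where 0.0409% of all tested probes were called. This was 0 of 9 tested genes of alternative activation, 0 of 10 macrophage marker symbols and 0 of 7 stromal and mesothelial genes. It was 0 of 2 neutrophil, 0 of 2 mast cell and basophil, 0 of 1 B cell and 0 of 1 T cell genes. With so small a share over all probes, nothing is read from these counts. The alternative activation genes had a median difference of -0.01 and ran from -0.50 (*Klf4*, a transcription factor) to 0.57 (*Arg1*, arginase 1). The macrophage markers had a median of 0.11 and ran from -0.48 (*Cd14*) to 0.61 (*Fcgr1*). With the replicate block *Mertk*, a receptor for dying cells, was called at a difference of 0.56 (adjusted p = 0.0364 from limma). In that fit 0.164% of all tested probes were called higher. *S100a8* and *Ltf*, of neutrophils, differed by 0.24 and 0.20, *Hdc* and *Gata2*, of mast cells, by 0.02 and -0.09, *Ms4a1*, of B cells, by -0.11, and *Lck*, of T cells, by -0.18. *Lum* and *Col1a2*, of stromal cells, differed by 0.34 and -0.23. The summed signal of the macrophage probes was 41032 to 61490 in control and 40813 to 56385 with Ac-LDL, and that of the stromal probes was 19470 to 27595 and 19216 to 21997. The part of these cells in the Ac-LDL values of the family was not tested.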

How the data were processed

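Total RNA of 8 samples (4 control, 4 Ac-LDL) was measured on Illumina bead arrays. Per the labels, the samples of a group are biological replicates, and p-values measure the spread between them. Per array, the authors deposited for 45281 probes the mean bead intensity on the linear scale, neither background-corrected nor normalized (exported from BeadStudio), with a detection p-value, a bead standard error and the number of beads (a count, 21 to 75 for the members, median 45), and 0 of these columns were left out. The authors normalized in GeneSpring GX by a method that is not given in the sources used here, and those values were not used.

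Intensities were corrected with the normexp model (limma 3.58.1 neqc, R 4.3.3; negative controls inferred from the detection p-values, offset 16), quantile normalized and log2 transformed. The 17122 probes detected (p-value up to 0.05) on 4 or more of 8 arrays were tested by limma, without a block as the study's test was unpaired, with Benjamini-Hochberg adjustment over all of them and calls at 0.05. The fit was tested on simulated data. The slide was tested with treatment as a covariate. Named were all members, the related RNase genes, of each other gene list the called members or the tested genes with the largest change up and down, and the 5 probes most like *Ear2* by each measure. Genes named beside the slide difference were chosen after their values were seen. Of several probes of a gene, that of highest mean among the tested ones is given. The members and gene lists were chosen with earlier results of these data known.

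Samples of the same number correlated in their deviations from the group means (r = 0.58, 0.48, 0.47 and 0.63 across probes), beside 0.19 to 0.45 between different numbers on the same slide, so the replicate numbers of the labels were taken to pair them in an alternative fit. Alternatives were other background corrections, normalizations, offsets and filters, replicate and slide blocks, the methods' t-test and each array left out. Fits within each slide, the interaction, and slide tests with the replicate number as a random block or on the means of its arrays were added after the data were seen. Sequences are those of the deposited annotation and of RefSeq.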

Additional observations from a re-analysis of the deposited data

Results flagged for a closer look

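The level of the *Ear2* probe at base 1 (ILMN_2524992) on Ac-LDL replicate 4 stood apart from the other Ac-LDL arrays, at 5.61 against 4.82 to 4.95 (deposited signals 71.9 against 50.4 to 57.2). Of 36 groups of 4 arrays looked at, 1 had such a gap, where chance gives 1.8. The same array was the highest Ac-LDL array by every tested Ear probe, and also by the tested *Rnase4* probe and the *Ang* probe.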

How the results depend on the processing

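The number of probes called between Ac-LDL and control, 7, was 26 with centring of arrays on their median, 76 with the replicate block, 55 with the slide block, 14 within slide 1 and 16 within slide 2 (both added after the data were seen), and 0 with no filter on dim probes (2290 at an unadjusted p under 0.05) or with the methods' t-test after Benjamini-Hochberg adjustment (1039 at an unadjusted p under 0.05, and 53 that also met the methods' fold limits, 28 higher and 25 lower). Leaving out 1 array moved it between 0 (without Ac-LDL replicate 1, 2 or 3 or control replicate 4, with 712 to 1135 probes at an unadjusted p under 0.05) and 15 (without control replicate 2), and it was 1 without Ac-LDL replicate 4. The number called between slides, 4042, lay between 2333 and 4478 with 1 array left out, the lowest values being those without a control array (2333 to 2576). It was 3649 with the replicate number as a random block and 2376 on the means of the 2 arrays of each number (both added after the data were seen). The median difference of the tested members, 0.52, was 0.038 with no filter, which takes in the 11 untested members, 0.22 within slide 1 and 0.86 within slide 2. With the replicate block 1 gene of the lists was called (*Mertk*), against 0 without it. The block changed no other list call, and of the members it added the *Ear2* probes at bases 613 and 639. Nothing is read from these member calls, because the contrast was used in choosing the family. The difference of *Ear2* by the probe at base 613 stayed between 0.70 and 1.25 over all 17 alternatives. Among these, the filters and blocks cannot change a mean difference, so that their value of 1.00 was fixed in advance. The median r of the Ear probes with that probe stayed between 0.92 and 0.94 over 2 alternatives. Within slides, *Ear2* at base 38 moved to 0.13 and 0.90 and *Ear3* to 0.22 and 1.00. No value changed its sign beyond the spread between arrays. Dim signals near the negative controls limit what can be read of *Ear4* and of the *Ear2* probe at base 1. The causes were not tested.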
